A study of Rattus norvegicus with 16 samples.

Results

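The genes described here encode subunits of the mitochondrial respiratory chain, measured in the CA1 and CA3 fields of cultured rat hippocampus. They were chosen by name alone: every array probe set with a single gene symbol that starts with Nduf, Sdha, Sdhb, Sdhc, Sdhd, Uqcr, Cox4, Cox5, Cox6, Cox7, Cox8 or Atp5. The rule took 94 probe sets of 88 genes, out of 15866 probe sets and 10411 named genes, and the probe set with the highest mean stood for each gene. Of the 88 members, 34 belong to complex I, 4 to complex II, 7 to complex III, 15 to complex IV and 15 to complex V. The other 13 are no subunits. They are 9 assembly factors (Ndufaf3, Ndufaf4, Ndufaf5, Ndufaf7, Ndufaf8 and Sdhaf1 to Sdhaf4), the ATP synthase inhibitor Atp5if1, the supercomplex factor Cox7a2l, the Ndufa4 relative Ndufa4l2 and the pseudogene Cox6c-ps1. A further 7 probe sets that the annotation gives to several genes at once were left out. They carry the symbols Atp5mc1, Atp5mc2, Cox5a, Cox7a2, Ndufa10, Ndufs5 and Uqcrb, each beside another gene, and had means from 8.15 to 11.15. Of these genes only Cox5a is a member, through a dimmer probe set with a mean of 5.59 that lay below the array median on 13 of 16 arrays.

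The samples are organotypic hippocampal slice cultures, tissue slices kept alive in a dish, of Rattus norvegicus. The labels set out 8 groups, CA1 and CA3 each at T0, T30m, T3h and T12h (taken as 30 min, 3 h and 12 h after T0), with 2 arrays called biological replicates in every group. The study's title names oxidative stress. For the agent, its dose, its relation to T0, and the strain and age of the rats, no entry was found in the sources used here, nor one on whether replicates came from separate animals. The p-values therefore measure only the spread between these samples. All values are log2 expression values from RMA, a method that gives every array the same distribution of signals, so a difference is always one against the rest of the same array. Arrays read RNA from all cells of a field, and fewer cells of a type and less RNA per cell cannot be told apart.

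The respiratory chain passes electrons from NADH (complex I) and succinate (complex II) through complex III to complex IV, which hands them to oxygen. Complexes I, III and IV pump protons across the inner mitochondrial membrane, and complex V, the ATP synthase, lets them flow back to make ATP. A few core subunits are encoded in mitochondrial DNA and are not among the members, all of which are nuclear genes. Neurons depend heavily on this pathway for ATP, and complexes I and III are known as sources of superoxide.

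Control signals differed between the arrays. The GAPDH control difference (signal of the 3′ probe set minus that of the 5′ one), which grows when RNA is shortened, ran from 1.29 to 3.93. It was higher in replicate 2 than in replicate 1 in 8 of 8 groups, and in CA1 than in CA3 in 8 of 8 pairs of the same time and number. The mean signal of Bacillus control transcripts ran from 4.10 to 6.85 and was lowest on the replicate 2 arrays of 30 min and 12 h. It also differed by time, with 6.27 to 6.85 at T0 and 4.30 to 5.30 at 12 h. At 3 h it was higher in replicate 2, with 6.30 against 5.43 in CA1 and 6.14 against 5.97 in CA3. The label of the tissue was checked on marker genes picked with earlier results in view. Neuron markers (19 measured) had array medians from 5.18 to 8.90 and astrocyte markers (9 measured) from 9.30 to 11.42. For the fields, the CA3 marker Grik4 was lower in CA1 by 0.83 ± 0.23 (standard error, as is every error after ± below). Pcp4, known from neighbouring CA2, was lower there by 1.54 ± 0.28. The CA1 markers Wfs1 and Fibcd1 were higher there by 0.44 ± 0.21 and 0.55 ± 0.29. None of these markers passed an adjusted p under 0.05 in limma on all arrays, where Pcp4 had 0.529. In limma on the differences within pairs only Pcp4 passed (adjusted p = 0.0104), with Grik4 at 0.0818, Wfs1 at 0.246 and Fibcd1 at 0.422.

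Most members gave a strong signal. On all 16 arrays, 76 of 88 lay above the array's median and 6 lay below it. The 6 are Cox4i2, Cox6b2, Cox7a1, Cox8b, Cox6c-ps1 and Ndufa4l2, of which the first 4 are isoforms best known from lung, testis, heart or muscle. The members' median ran from 8.39 (CA1 at 3 h, replicate 2) to 9.49 (CA3 at 12 h, replicate 1), while array medians over all probe sets lay between 5.81 and 5.94.

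By complex, the CA1 arrays at T0 had complex I medians of 9.03 and 8.62 for replicates 1 and 2, and the CA3 arrays 9.32 and 8.66. At 3 h these were 8.92 and 8.45 in CA1 and 8.79 and 8.58 in CA3, and at 12 h 9.16 and 8.67 in CA1 and 9.47 and 9.21 in CA3. Within each of these groups replicate 2 read lower than replicate 1, and both CA3 arrays at 12 h lay above all 4 arrays at 3 h. Complex V had the same order of replicates, with 9.92 and 9.67 in CA1 and 10.13 and 9.70 in CA3 at T0, against 10.05 and 9.35 in CA1 and 10.35 and 10.14 in CA3 at 12 h. Complex IV had its lowest medians on the 3 h replicate 2 arrays, 8.53 in CA1 and 8.72 in CA3, against 9.53 and 9.69 on the replicate 1 arrays of the same time. Complex II, the smallest group, split by replicate at 30 min, with 8.97 and 9.60 in CA1 and 8.83 and 9.80 in CA3. Complex III stayed within 9.91 to 10.55 on all 16 arrays.

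**Figure D1:**
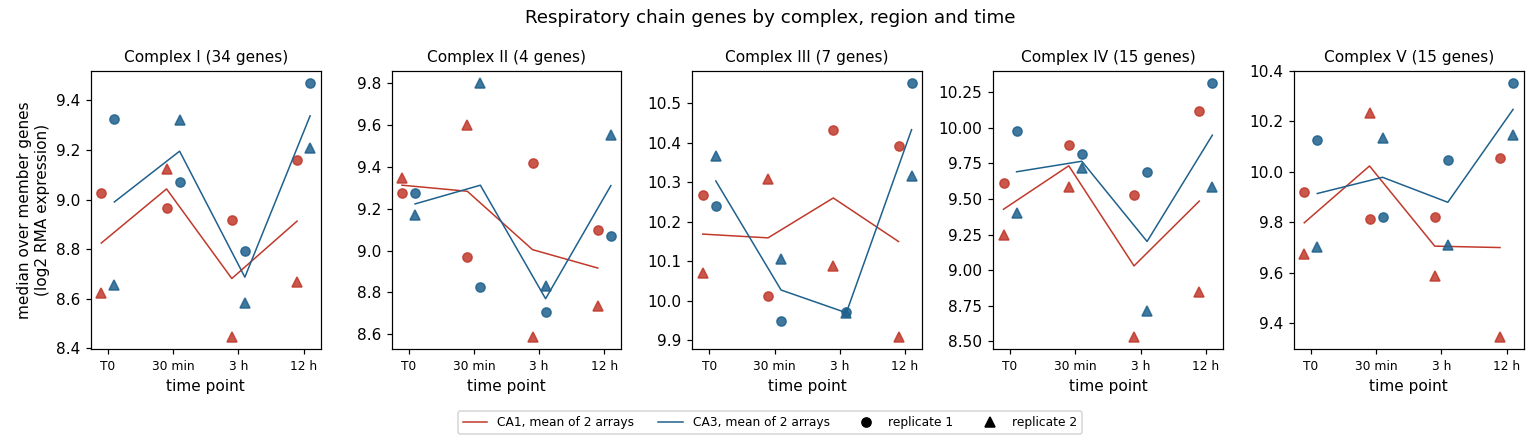
Median log2 RMA expression over the member genes of complexes I to V (one panel each, y axis) at the 4 time points (x axis) in CA1 (red) and CA3 (blue). Points are single arrays (circles replicate 1, triangles replicate 2), lines join the means of 2 arrays, and y axes differ between panels. The 3 h replicate 2 arrays are low in complexes I and IV, and both CA3 arrays at 12 h lie above both CA1 arrays in complexes I and V.

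Most members differed between the replicate arrays of a group. Replicate 2 was lower than replicate 1 for 75 of 88 members in CA1 at T0, 73 in CA3 at T0, 72 in CA1 at 3 h, 59 in CA3 at 3 h, 72 in CA1 at 12 h and 58 in CA3 at 12 h. At 30 min the split was near even, with 38 and 45 of 88 lower. The median of replicate 2 minus replicate 1 went down to -0.56 in CA1 at 3 h, where over all genes it was 0.02. The plot of members against the GAPDH control shows that the arrays with the greatest 3′ to 5′ difference, 3.93 on both 3 h replicate 2 arrays, had member medians of 8.39 (CA1) and 8.69 (CA3), among the 3 lowest of 16. Other arrays did not follow this order. CA1 at 30 min and CA3 at 12 h, both replicate 2, had differences of 2.77 and 2.925 and member medians of 9.30 and 9.21. CA3 at 3 h, replicate 1, had a difference of 1.63 and a member median of 8.87. The part of RNA shortening in the members' values was not tested beyond the fits with this difference as a covariate given below.

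**Figure D2:**
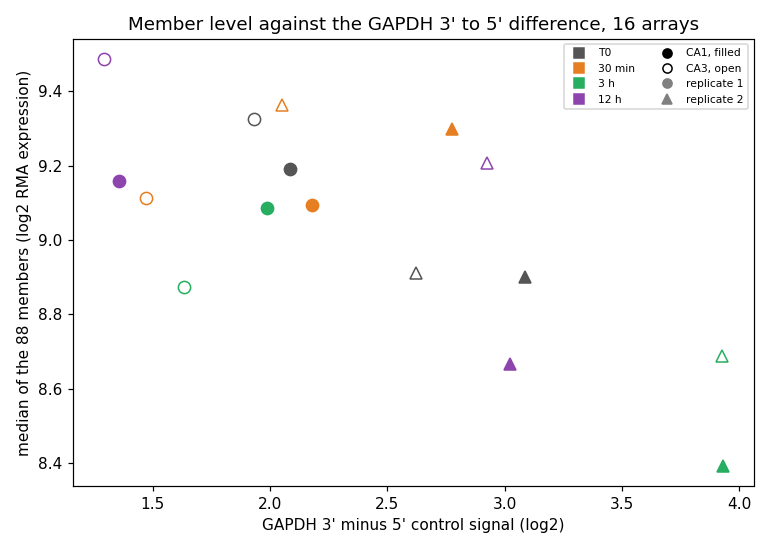
Median over the 88 members (y axis, log2 RMA expression) against the GAPDH 3′ minus 5′ control difference (x axis, log2) on each of 16 arrays; colour marks time, filled symbols CA1, open symbols CA3, circles replicate 1 and triangles replicate 2. The 3 h replicate 2 arrays lie far right and low (8.39 and 8.69), and CA3 at 12 h, replicate 1, lies far left and highest (9.49). Other arrays depart from this order, such as CA3 at 3 h, replicate 1, which lies left (1.63) and low (8.87).

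**Figure D3:**
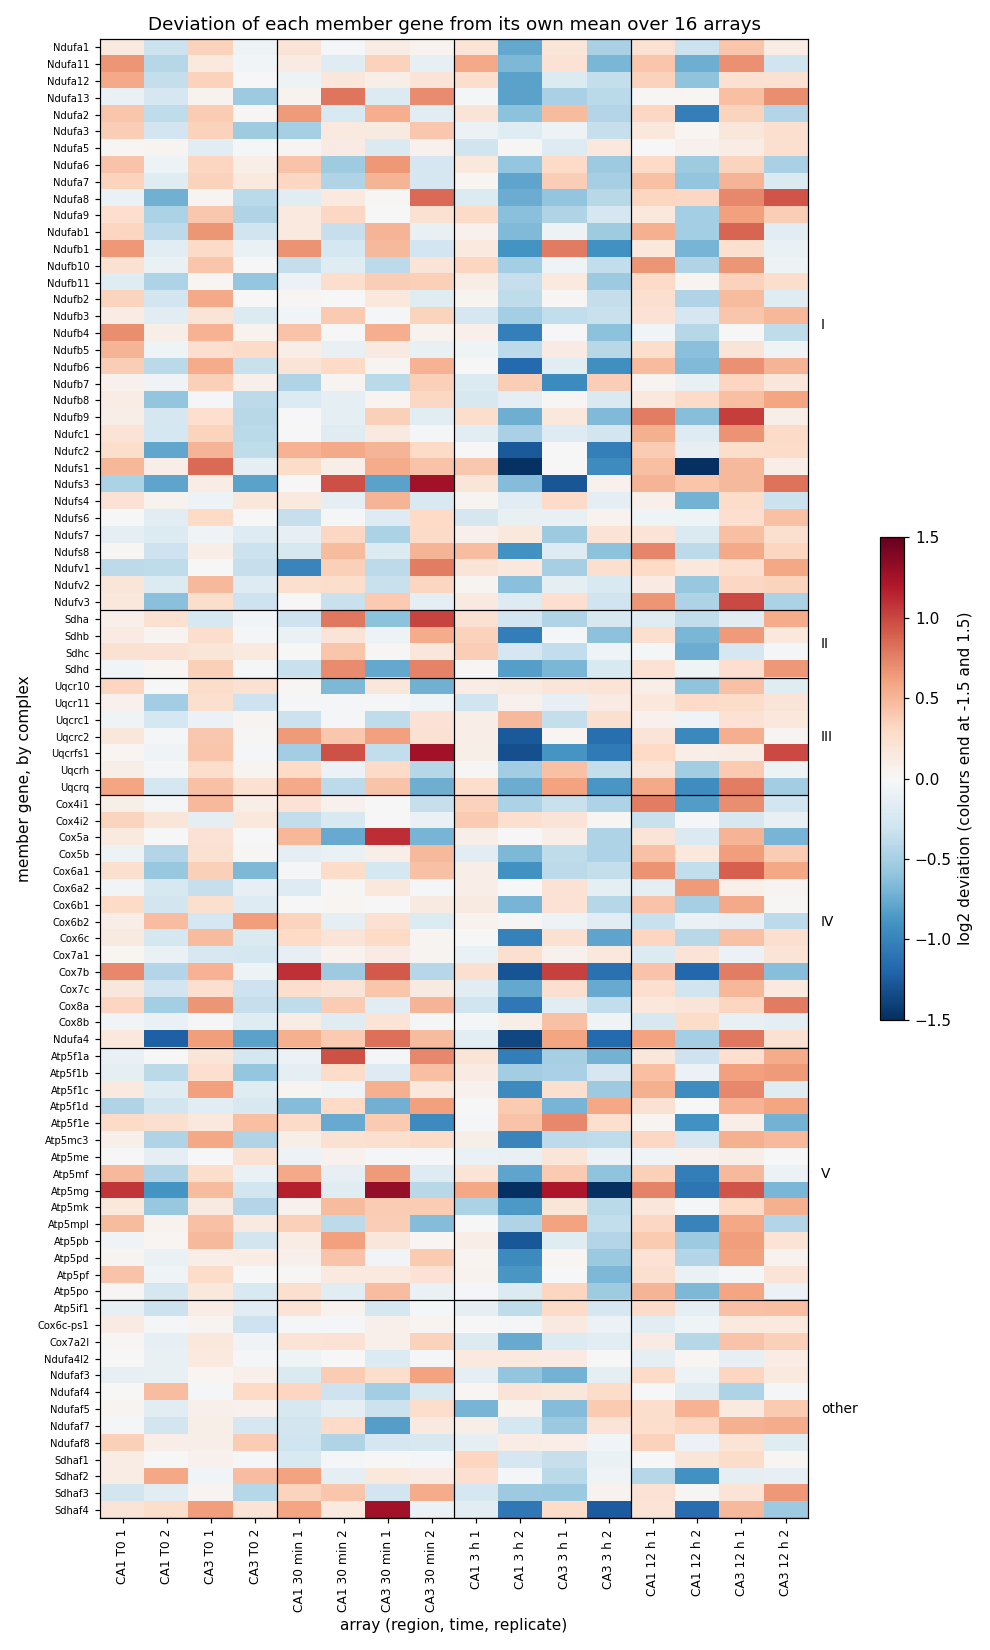
Deviation of each of the 88 members (rows, by complex) from its own mean over 16 arrays, on the log2 scale (colour, ending at -1.5 and 1.5), with one column per array ordered by time, region and replicate. The columns CA1 3 h 2 and CA3 3 h 2 are blue in most rows, with 18 and 17 of 88 members above their own mean, and CA3 12 h 1 is red, with 78 above.

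The region comparison asked how CA1 differs from CA3 whatever the time. Averaged over the 4 times, 74 of 88 members were lower in CA1, with a median difference of -0.11 on the log2 scale, against a median of -0.00 over all genes and 52.4% of all probe sets lower. Complex V had all 15 members lower (median -0.14), complex III all 7 (-0.10), complex I 31 of 34 (-0.12) and complex IV 11 of 15 (-0.14). Complex II was split 2 and 2 (-0.01), and of the 13 members that are no subunits 8 were lower (-0.04). No single member passed limma at a Benjamini-Hochberg adjusted p under 0.05, where 0% of all probe sets passed. At an unadjusted p under 0.05 there were 2 members (Ndufs6 and Cox5b, named for their values) of 88, with 3.21% over all probe sets. A fit on the differences within the 8 pairs passed 0 members, 9 at an unadjusted p, where 0.208% and 10.6% of probe sets passed. In limma's fit of all arrays, which does not use the pairs, the 95% interval of a typical member reached 0.41 to each side of its difference.

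Among members, 5 were lower in CA1 in all 8 pairs, which is 5.68% of 88, against 1.02% of all probe sets. None was higher in all 8 pairs, against 1.26%. These 5 are Atp5f1c, Cox8a and Ndufa4, and outside the naming rule, picked for this pattern, Ndufa7 and Ndufs6.

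Atp5f1c encodes the gamma subunit, the shaft that turns inside the ATP synthase head. In replicates 1 and 2 it read 10.97 and 10.64 in CA1 and 11.44 and 10.65 in CA3 at T0, 10.87 and 10.77 against 11.36 and 10.98 at 30 min, 10.89 and 9.87 against 11.06 and 10.28 at 3 h, and 11.36 and 9.89 against 11.55 and 10.65 at 12 h. The fields overlap as groups, and CA1 lies below CA3 only within pairs, at T0 in replicate 2 by almost nothing. The difference was -0.34 ± 0.26 over all arrays (adjusted p = 1, limma) and -0.34 ± 0.11 within pairs (adjusted p = 0.269, limma pair fit).

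Ndufa4, once counted with complex I and now known as a complex IV subunit, had the largest difference of all members. In CA1 it read 9.52 and 8.12 at T0, 9.88 and 9.74 at 30 min, 9.20 and 7.99 at 3 h and 9.95 and 8.85 at 12 h. The matching CA3 arrays read 9.98 and 8.56, 10.18 and 9.83, 9.95 and 8.19, and 10.14 and 9.58. The replicates lie further apart than the fields at T0, 3 h and, in CA1, 12 h. The difference was -0.40 ± 0.35 over all arrays and -0.40 ± 0.11 within pairs (adjusted p = 0.204, limma pair fit), the smallest adjusted p among the members.

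Cox8a, a small nuclear subunit of complex IV, read 10.97 and 10.14 in CA1 at T0, 10.27 and 11.04 at 30 min, 10.36 and 9.59 at 3 h and 10.81 and 10.84 at 12 h. In CA3 it read 11.31 and 10.31, 10.49 and 11.16, 10.49 and 10.29, and 10.98 and 11.43. Its difference was -0.31 ± 0.22, or ± 0.10 within pairs. Ndufs6, a zinc-binding accessory subunit of complex I, varied less: CA1 ran from 9.58 to 9.92 and CA3 from 9.73 to 10.36, with a difference of -0.26 ± 0.10 (adjusted p = 1, limma). For Ndufa7, a complex I accessory subunit, CA1 ran from 8.56 to 9.79 and CA3 from 8.86 to 9.86, and the difference was -0.23 ± 0.24.

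**Figure D4:**
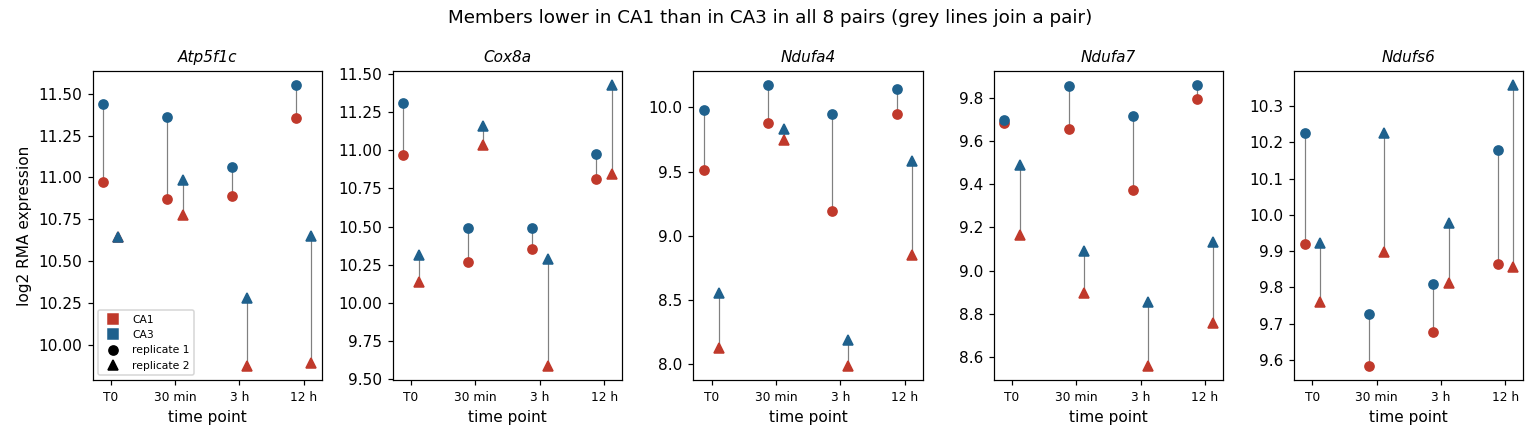
Log2 RMA expression (y axis) of the 5 members that were lower in CA1 (red) than in CA3 (blue) in all 8 pairs, at the 4 time points (x axis); circles are replicate 1, triangles replicate 2, and grey lines join the arrays of a pair. The gap within a pair runs from near 0 (Atp5f1c at T0, replicate 2) to 0.76 (Atp5f1c at 12 h, replicate 2).

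Other measures were also compared between the fields. Neuron markers were lower in CA1 for 17 of 19 genes (median -0.47) and oligodendrocyte markers for 7 of 7 (-0.65), of which 1 neuron marker, Nefl, and 3 oligodendrocyte markers passed the pair fit. Astrocyte markers were higher for 8 of 9 (0.19), and microglia markers had a median of 0.05. The part of these cell types in the members' difference was not tested. The GAPDH 3′ to 5′ difference was higher in CA1 in every pair, by 0.001 to 0.724 with a median of 0.25. At 30 min it read 2.18 and 2.77 in CA1 and 1.47 and 2.05 in CA3 (replicates 1 and 2). At 12 h it read 1.36 and 3.02 in CA1 and 1.29 and 2.925 in CA3. The gap in this control was thus wider at 30 min, while the members' gap was wider at 12 h. With this difference as a covariate, chosen after the data were seen, the members' median was -0.04, with 62 of 88 below 0. Ndufs6 then stood at -0.28 ± 0.11 and Cox8a at -0.27 ± 0.22, while Ndufa4 stood at -0.17 ± 0.17, Atp5f1c at -0.17 ± 0.12 and Ndufa7 at -0.07 ± 0.11. Without the CA1 12 h replicate 2 array the members' median was also -0.04.

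The promoters of 3 of these 5 genes are shown because they hold letters of motifs known from respiratory chain genes, the sites of the factors NRF1 and ETS (GABPA). They are RefSeq sequences on the build GRCr8, each 300 bases long, 250 before and 50 after the annotated start, for Atp5f1c at chr17:73333435-73333734 on the plus strand, for Cox8a at chr1:213833574-213833873 on the minus strand and for Ndufs6 at chr1:31797150-31797449 on the plus strand. Capitals mark GCGC, any 2 bases, GCGC (NRF1) or CCGGAAG on either strand (ETS), and in Ndufs6 the capitals hold 2 overlapping NRF1 matches.
Atp5f1c: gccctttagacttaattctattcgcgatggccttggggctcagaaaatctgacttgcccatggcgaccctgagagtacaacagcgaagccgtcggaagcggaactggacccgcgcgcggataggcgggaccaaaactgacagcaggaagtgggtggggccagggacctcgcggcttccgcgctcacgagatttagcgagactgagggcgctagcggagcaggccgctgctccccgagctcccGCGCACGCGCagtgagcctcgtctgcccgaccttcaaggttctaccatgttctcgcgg
Cox8a: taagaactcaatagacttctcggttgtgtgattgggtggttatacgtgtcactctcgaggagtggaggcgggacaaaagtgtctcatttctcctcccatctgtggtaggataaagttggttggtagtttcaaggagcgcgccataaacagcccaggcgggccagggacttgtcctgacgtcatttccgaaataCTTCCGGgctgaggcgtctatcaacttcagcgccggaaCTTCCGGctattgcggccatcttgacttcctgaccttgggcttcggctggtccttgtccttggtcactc
Ndufs6: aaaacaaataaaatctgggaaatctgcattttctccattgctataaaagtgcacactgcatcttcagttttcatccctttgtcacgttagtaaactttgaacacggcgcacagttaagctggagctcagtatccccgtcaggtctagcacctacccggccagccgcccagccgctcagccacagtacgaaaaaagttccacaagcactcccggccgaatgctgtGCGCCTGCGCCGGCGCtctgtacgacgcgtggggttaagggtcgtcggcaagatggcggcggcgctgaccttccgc

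The promoters of Ndufa4 and Ndufa7 hold neither motif. RefSeq promoters were matched for 80 of 88 members and for 8610 genes of the array, in a table of 33469. The NRF1 letters, on either strand, stood in 22.5% of the members' promoters, 11.9% of those of the array's genes and 5.58% of all. The strict form with AT in the middle, a subset of these matches, stood in 6.25%, 1.72% and 0.852%. CCGGAAG stood in 30% of the members' promoters, 15.5% of the array's genes and 8.75% of all. The motif of the estrogen-related receptors, AAGGTCA after any 2 bases, stood in 13.8%, 3.01% and 4.57%, and its strict form TCAAGGTCA, again a subset, in 2.5%, 0.186% and 0.433%. It is not in capitals above and occurs once each in Cox8a and Ndufs6. The GC content did not lie higher in the members, with a median of 56% against 60.3% for the array's genes. These are counts of letters and say nothing of binding in these slices.

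Among single times, the members' median difference between the fields was largest at 12 h. Pair by pair, 54 and 57 of 88 members were lower in CA1 at T0, 53 and 52 at 30 min, 42 and 64 at 3 h, and 73 and 77 at 12 h (replicates 1 and 2). The pair medians were -0.17 and -0.47 at 12 h and between -0.16 and 0.01 before it. In the mean of both pairs at 12 h, 81 of 88 members were lower in CA1 (median -0.31, all genes 0.00, and 48.2% of probe sets lower), with all 34 of complex I, 4 of complex II, 7 of complex III and 15 of complex V, and 11 of 15 of complex IV. No member passed limma, where 0% of probe sets did, and 1 was under an unadjusted p of 0.05 (Cox7a2l, a factor for joining complexes III and IV, at -0.54 ± 0.23), where 1.29% of probe sets were. The pair fit passed 0, with 13 at an unadjusted p, where 0.0063% and 4.47% of probe sets passed. The size of the median depended on single arrays: without CA1 12 h replicate 2 it was -0.06, and without CA1 12 h replicate 1 it was -0.60. These 2 fits set 1 CA1 array against both CA3 arrays and so break the pairs, while within each pair the median lay below 0, as given above.

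At the other times 67 of 88 members were lower in CA1 at T0 (median -0.08), 51 at 30 min (-0.05) and 54 at 3 h (-0.04). limma passed 0 at each, with 0 at an unadjusted p under 0.05, where 0.725%, 2.04% and 1.57% of probe sets were. The pair fit also passed 0 at each, with 0, 1 and 1 at an unadjusted p, where 3.96%, 6.48% and 5.58% of probe sets were.

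**Figure D5:**
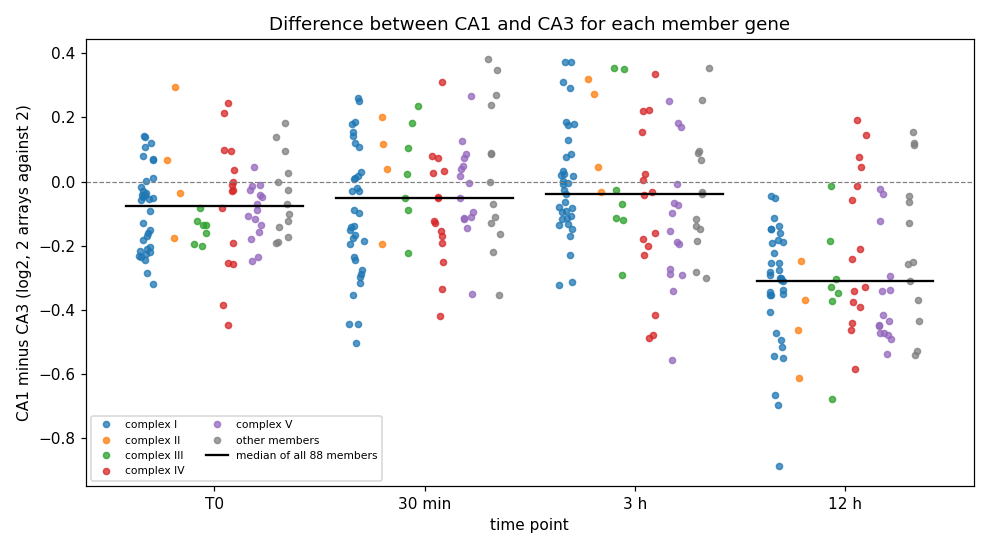
CA1 minus CA3 (y axis, log2, 2 arrays against 2) for each of the 88 members at the 4 time points (x axis), coloured by complex; black bars are the medians over all members. At 12 h 81 of 88 points lie below 0, with a median of -0.31.

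Whether the change from T0 differed between the fields was tested as an interaction. At 12 h, 72 of 88 members had a lower change in CA1 than in CA3 (median -0.24, all genes -0.02, and 51.9% of probe sets lower). limma passed 0 of 88 in this comparison and 0 were under an unadjusted p of 0.05, where 0% and 0.447% of probe sets were, and the pair fit likewise gave 0 and 0, where 0% and 2.34% of probe sets were. In limma's fit of all arrays the 95% interval of a typical member reached 1.17 to each side. A difference of this size could not have been told from 0 in that fit. At 30 min and 3 h the test also passed 0 of 88, with 0 at an unadjusted p in either fit. In limma's fit of all arrays 0.838% and 0.347% of probe sets were under that p at these times, and in the pair fit 3.75% and 1.77%.

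Each later time was then compared with the same T0 arrays, averaged over both fields, so the 3 comparisons share their T0 values. In limma's fit of all arrays the 95% interval of a typical member reached 0.58 to each side. At 30 min 55 of 88 members lay above T0 and 33 below (median 0.07, all genes -0.01, and 49.6% of probe sets above). This median turned to -0.04 without CA1 T0 replicate 2, to -0.01 without CA3 T0 replicate 2 and to -0.01 with the GAPDH covariate. The replicates went apart, with 54 (CA1) and 56 (CA3) of 88 members below T0 in replicate 1, and 65 and 63 above it in replicate 2. limma passed none, where 0.107% of probe sets passed, and 5 members were under an unadjusted p of 0.05, where 7.46% of probe sets were. The pair fit passed 0, with 1 at an unadjusted p, where 3.96% of probe sets were. In single fields limma passed 0 in CA1, where 0.0126% of probe sets passed, and 0 in CA3, where 0% did, with 2 members in each at an unadjusted p, against 4.96% and 3.04% of probe sets.

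The smallest adjusted p at 30 min belonged to Ndufaf8, a complex I assembly factor named here for its values. It read 7.60 and 7.35 in CA1 and 7.33 and 7.62 in CA3 at T0, and 6.94 and 6.79 in CA1 and 6.99 and 6.998 in CA3 at 30 min. All 4 arrays at 30 min lay below all 4 T0 arrays, which held for 1 of 88 members (1.14%) and 3.66% of probe sets, and the difference was -0.54 ± 0.15 (adjusted p = 0.329, limma). By 12 h it read 7.59 and 7.15 in CA1 and 7.45 and 7.06 in CA3, within or below the T0 range. Uqcrfs1, the Rieske iron-sulfur protein of complex III, shows the split of the replicates: 6.78 and 8.26 in CA1 and 6.94 and 8.56 in CA3 at 30 min, against 7.34, 7.25, 7.72 and 7.27 at T0. Sdha, the flavoprotein that oxidises succinate, split in the same way, with 8.84 and 9.93 in CA1 and 8.54 and 10.16 in CA3, around a mean difference of 0.22 ± 0.35.

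At 3 h 71 of 88 members lay below T0, with a median of -0.23 against 0.02 over all genes, where 41.6% of probe sets lay below. Complex II had all 4 members below (median -0.35), complex V 13 of 15 (-0.33), complex I 28 of 34 (-0.22), complex III 5 of 7 (-0.20) and the non-subunits 10 of 13 (-0.13). In complex IV the 10 members other than the tissue isoforms were all below (-0.34), while 4 of the 5 isoforms were above (0.20). In CA1 alone 70 of 88 were below (-0.23) and in CA3 alone 72 (-0.24). limma passed 0, where 0.183% of probe sets passed, and 2 members were under an unadjusted p of 0.05, where 9.09% of probe sets were. The pair fit passed 0, with 0 at an unadjusted p, where 4.99% of probe sets were. In single fields limma passed 0 in CA1, where 0.0063% of probe sets passed, and 0 in CA3, where 0% did, with 1 member in each at an unadjusted p, against 4.56% and 3.93% of probe sets.

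The 2 are Ndufb4 and Atp5pf. Ndufb4, an accessory subunit of the complex I membrane arm, read 10.62 and 10.01 in CA1 and 10.44 and 9.97 in CA3 at T0, and 9.995 and 8.89 in CA1 and 9.92 and 9.30 in CA3 at 3 h. Within each replicate number every 3 h value lies below every T0 value, but replicate 1 at 3 h overlaps replicate 2 at T0, and the difference was -0.73 ± 0.28 (adjusted p = 0.458, limma). At 12 h it stood at 9.87 and 9.49 in CA1 and 9.92 and 9.53 in CA3, all below T0, at -0.55 ± 0.28. Atp5pf, a peripheral stalk subunit of the ATP synthase, read 9.05 and 8.57 in CA1 and 8.90 and 8.63 in CA3 at T0, and 8.68 and 7.75 in CA1 and 8.62 and 7.95 in CA3 at 3 h, which gives -0.54 ± 0.22 (adjusted p = 0.505, limma). Its 12 h values, from 8.53 to 8.86, overlapped those at T0.

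The largest differences at 3 h sat in Uqcrfs1 (-0.89 ± 0.44), in the complex II assembly factor Sdhaf4 (-0.88 ± 0.45), named here for its values, and in Ndufs1 (-0.83 ± 0.50), a core iron-sulfur subunit of complex I, each with a wide error. Ndufs1 read 8.14 and 6.25 in CA1 and 7.72 and 6.79 in CA3 at 3 h, with replicate 2 below replicate 1 in both fields. Uqcrfs1 read 7.38 and 5.98 in CA1 and 6.41 and 6.25 in CA3. All 4 values at 3 h lay below all 4 at T0 for 3 of 88 members (3.41%, with 3.69% over all probe sets): Ndufb3, a complex I accessory subunit, with 10.33 to 10.74 at T0 and 10.03 to 10.29 at 3 h, and, named for this pattern, Cox7a2l and the assembly factor Ndufaf3. The reverse held for 0 members and 3.01% of probe sets.

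Comparing each 3 h array with the T0 array of the same field and number, 26 of 88 members were below T0 in all 4 comparisons and 2 above, which is 29.5% and 2.27% of the members, against 10.6% and 11.5% of all probe sets. The medians over members in these comparisons were -0.10 and -0.34 in CA1 (replicates 1 and 2) and -0.29 and -0.22 in CA3. Below T0 were 57 and 63 of 88 members in CA1 and 62 and 61 in CA3. Without the 3 h replicate 2 arrays of both fields the median over members was -0.04 with 48 of 88 below. That setting kept the T0 replicate 2 arrays, which read lower than replicate 1, so it does not compare like numbers. With a further normalization by cyclic loess the median over members was -0.06 with 53 below. With the GAPDH difference as a covariate it was -0.13 with 63 below, and Ndufb4 stood at -0.57 ± 0.15.

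At 12 h 51 of 88 members lay above T0 and 37 below, with a median of 0.11 against -0.03 over all genes, where 45.5% of probe sets lay above. In CA1 alone the split was 45 and 43 (median 0.00) and in CA3 alone 61 and 27 (0.21). Complex I had 21 of 34 above (0.12), complex IV 10 of 15 (0.11), complex V 8 of 15 (0.07), complex III 3 of 7 (-0.10) and complex II 1 of 4 (-0.03). limma passed 0 members, where 2.07% of probe sets passed, and 13 were under an unadjusted p of 0.05, 14.8% of the 88, where 18.2% of probe sets were. The pair fit passed 0, with 5 at an unadjusted p, where 10.5% of probe sets were. In single fields limma passed 0 in CA1, where 0.208% of probe sets passed, and 0 in CA3, where 0.0063% did, with 5 and 4 members at an unadjusted p, against 11.3% and 6.93% of probe sets. All 4 arrays at 12 h lay above all 4 at T0 for 8 members (9.09%, with 7.55% over all probe sets) and below them for 4 (4.55%, with 8% over all).

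Ndufa8, an accessory subunit of complex I, came closest to the threshold. It read 7.95 and 7.33 in CA1 and 8.09 and 7.65 in CA3 at T0, and 8.38 and 8.37 in CA1 and 8.78 and 8.997 in CA3 at 12 h, with no overlap. The difference was 0.88 ± 0.22 (adjusted p = 0.0727, limma; 0.37 in the pair fit). In between, it read 7.88 and 8.20 in CA1 and 8.07 and 8.90 in CA3 at 30 min, and 7.31 to 7.85 at 3 h. Under 4 other settings it passed: with a replicate block (adjusted p = 0.0427, limma), with the GAPDH covariate (0.0341), and without either CA3 array of 30 min (0.0445 each).

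Ndufs3, a core subunit of complex I, had the largest difference above T0. At T0 it read 7.87 and 7.56 in CA1 and 8.46 and 7.54 in CA3, and at 12 h 8.85 and 8.76 in CA1 and 8.84 and 9.16 in CA3, also without overlap. At 1.04 ± 0.47 its error was wide (adjusted p = 0.267, limma), since at 30 min it ran from 7.54 to 9.61 and at 3 h from 7.06 to 8.53. Ndufv1, which binds NADH and the flavin, read 8.27 to 8.66 at T0 and 8.81 to 9.24 at 12 h. Ndufb8, a membrane arm subunit, read 6.30 to 7.004 at T0 and 7.05 to 7.49 at 12 h, at 0.60 ± 0.16 (adjusted p = 0.092, limma). Ndufv1 and Ndufb8 are named for their values, as are the others without overlap above T0, namely Ndufb11, Ndufaf5 and Ndufaf7. Ndufs7, another core subunit, overlapped T0, with 9.37 to 9.53 at T0 and 9.36 to 10.03 at 12 h. Ndufs1 lay on the other side of 0, at -0.47 ± 0.50, through CA1 replicate 2, which read 6.10 against 8.18, 8.22 and 7.83 on the other 12 h arrays.

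In complex V the catalytic and central stalk subunits did not share a sign. Atp5f1b, the catalytic beta subunit, read 11.20 and 10.95 in CA1 and 11.60 and 10.77 in CA3 at T0, and 11.80 and 11.26 in CA1 and 11.97 and 11.99 in CA3 at 12 h, at 0.63 ± 0.24 (adjusted p = 0.197, limma). Its partner in the head, Atp5f1a, stood at 0.22 ± 0.31. Atp5f1d, the delta subunit of the central stalk, read 9.37 to 9.65 at T0 and 9.82 to 10.42 at 12 h, with no overlap, at 0.62 ± 0.34. Atp5f1e, the epsilon subunit beside it, went the other way without overlap, from 11.85, 11.80, 11.71 and 12.01 at T0 to 11.61, 10.65, 11.65 and 10.85 at 12 h, at -0.65 ± 0.35 (adjusted p = 0.38, limma). On the 30 min arrays Atp5f1e had the same split by number, 11.84 and 10.80 in CA1 and 11.95 and 10.60 in CA3. Atp5if1, which blocks the enzyme when it runs in reverse, stood at 0.39 ± 0.16 (adjusted p = 0.224, limma), with 7.68 to 8.11 at T0 and 7.87 to 8.46 at 12 h. Its 2 other, dimmer probe sets stood at -0.04 and -0.03.

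In complex II the membrane anchor Sdhc was below T0 without overlap, from 9.24 to 9.33 at T0 to 8.35 to 9.07 at 12 h (-0.46 ± 0.19, adjusted p = 0.236, limma). The iron-sulfur subunit Sdhb stood at -0.01 ± 0.32 and Sdha at -0.05 ± 0.35. The other anchor, Sdhd, stood at 0.18 ± 0.35, and its second probe set at -0.15. Sdhaf2, which helps to attach the flavin to Sdha and is named here for its values, read 7.27 to 7.90 at T0 and 6.41 to 7.19 at 12 h (-0.68 ± 0.21, adjusted p = 0.114, limma). Its second probe set, with a low mean of 4.80, stood at 0.40, so the probe sets of this gene disagree in sign.

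In complex III the core proteins Uqcrc1 and Uqcrc2 stood at 0.19 ± 0.18 and -0.19 ± 0.36, and Uqcrfs1 at 0.28 ± 0.44. The small subunit Uqcr11 stood highest (0.36 ± 0.17) and Uqcrq lowest (-0.28 ± 0.50), the latter with 11.40 and 9.91 in CA1 and 11.60 and 10.32 in CA3. Uqcr10 (-0.27 ± 0.25) and Uqcrh (-0.10 ± 0.25) lay between.

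In complex IV the general isoforms and the tissue isoforms were set side by side. Cox4i1, which most tissues use, stood at -0.08 ± 0.34, while Cox4i2, known from lung and from low oxygen, stood at -0.31 ± 0.12 (adjusted p = 0.21, limma) with all values below the array median, from 4.39 to 4.87 at T0 and 4.19 to 4.50 at 12 h. Cox6a1 stood at 0.61 ± 0.34 and the muscle form Cox6a2 at 0.34 ± 0.17. Cox6b1 stood at 0.11 ± 0.27 and the testis form Cox6b2 at -0.47 ± 0.21, again below the array median throughout. Cox8a stood at 0.33 ± 0.30 and Cox8b at 0.03 ± 0.15. Cox7a1 had no general form to set beside it, since the probe set of Cox7a2 was left out. Among subunits not set against a tissue isoform here, Cox5b, named for its values, stood at 0.47 ± 0.16 (adjusted p = 0.153, limma). It read 9.24 to 9.92 at T0 and 9.84 to 10.31 at 12 h. Cox6c stood at 0.11 ± 0.30 and Cox7b at -0.34 ± 0.65. Ndufa4 stood at 0.59 ± 0.50, while its relative Ndufa4l2, known from low oxygen, stood at -0.03 ± 0.11 with all values below the array median.

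Lists of other genes of mitochondrial energy metabolism, chosen with earlier results in view, gave few calls. At 3 h, the list of other parts of the chain and its partners (cytochrome c1, electron transfer flavoproteins, carriers and others) had 15 of 17 measured genes below T0 (median -0.44), the tricarboxylic acid cycle with pyruvate entry 19 of 25 (-0.29), mitochondrial ribosomal proteins 60 of 71 (-0.22) and assembly factors, without the 4 on that list that are members, 21 of 29 (-0.08). At 12 h the medians of the same lists were -0.07, 0.18, -0.05 and -0.01. None of these genes passed limma at 30 min, 3 h or 12 h. Of the 11 measured regulators of mitochondrial gene expression 1 passed, at 12 h: Creb1, a transcription factor, at 0.89 ± 0.16 (adjusted p = 0.024, limma; 0.205 in the pair fit). The largest differences at 12 h in the partner list were those of Ckmt1, mitochondrial creatine kinase (2.57 ± 0.75, adjusted p = 0.106, limma), Nnt, the transhydrogenase (-1.61 ± 0.52), and Etfa (-1.45 ± 0.39), an electron transfer flavoprotein subunit.

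Neuron markers at 12 h had a median of 1.76, with 18 of 19 above T0 and 3 passing limma (Tubb3, Slc17a6 and Stmn2). Microglia markers had -1.93, with 4 of 12 passing below T0. Genes of dividing cells fell in 12 of 12 cases (median -2.24), and all 12 passed limma. In the pair fit none of these genes passed. Astrocyte markers had a median of -0.30, oligodendrocyte markers 0.19 and endothelial and mural markers -0.08, with none passing limma. At 3 h neuron markers had a median of 0.31, microglia markers -0.67 and genes of dividing cells -1.75. The part of cell makeup in the members' values was not tested. Every 12 h array had a lower Bacillus control signal than every T0 array. Time and this control therefore cannot be told apart in the comparison of 12 h with T0. The arrays with the lowest Bacillus control signal were those of replicate 2 at 30 min and 12 h. With them left out, the members' median at 12 h was 0.31, with 14 of 88 below T0. This setting kept the T0 replicate 2 arrays, which read lower than replicate 1, so it does not compare like numbers. Each 12 h array was also set against the T0 array of the same field and number. The members' medians were then 0.06 and -0.11 in CA1 (replicates 1 and 2) and 0.16 and 0.20 in CA3. In the fit without CA1 12 h replicate 1 the members' median at 12 h was -0.03.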

How the data were processed

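The deposited table holds log2 expression values of 15923 probe sets on 16 arrays, which the authors computed by RMA, according to the submitters' processing notes; its version is not stated there. Per the labels, RNA was labelled with biotin in a procedure of repeated amplification. Values ran from 2.83 to 13.96. After 57 control probe sets were set aside, 15866 were tested; the platform annotation names 1 gene for 12783, several for 312 and none for 2771, and the RefSeq table (GRCr8) changed 0 symbols.

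limma 3.58.1 in R 4.3.3 fitted 8 group means to all 16 arrays, with 8 residual degrees of freedom and a prior worth 2.55, and adjusted p-values by Benjamini-Hochberg over all probe sets within a contrast (threshold 0.05). The code was tested on simulated data. CA1 and CA3 arrays that share a time and a number deviated from their group means together (correlations of 0.57 to 0.67 over probe sets). The numbers were therefore treated as pairing the fields. Between T0 and later times the correlations ran from -0.24 to 0.31, with 5 of 12 under 0.1. Between 2 later times they ran from 0.296 to 0.657, with 0 of 12 under 0.1. Arrays of a number thus also deviated together across later times, while the pair fit takes pairs of different times as separate. The effect of this on its p-values was not tested. The pair fit uses the 8 pair differences, or pair means for time contrasts (4 residual degrees of freedom). Means over members carry no test.

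The members, the lists and the tests were chosen with earlier results of these data known. Named members were, per complex, the 3 with the highest mean, the 2 largest differences each way at 12 h and between fields, isoform sets and any member passing; others are said to be named for their values. Other settings were the replicate number as a block, cyclic loess, median centring, leaving out dim probe sets, the mean of a gene's probe sets, subunits only, control signals as covariates and leaving out arrays. A planned comparison of protein sequences was not run. The number of arrays limits the precision.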

Additional observations from a re-analysis of the deposited data

How the results depend on the processing

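No member passed the threshold in the region comparison or at 30 min or 3 h under any of the 11 other settings or when each of the 16 arrays was left out in turn. At 12 h against T0 the count of members passing was 2 with the replicate block (Ndufa8 and Ndufb4; limma, 19 at an unadjusted p under 0.05), 1 with cyclic loess (Cox5b), 3 with the GAPDH 3′ to 5′ difference as a covariate, chosen after the data were seen (Ndufa8, Ndufb4 and Ndufb8), and 0 to 1 when one array was left out (1, Ndufa8, without CA3 T30m replicate 1 or CA3 T30m replicate 2). It was 0 under the remaining 8 settings, the pair fit included. The replicate block changed no other count. The shares of all probe sets passing under these other settings are not given here, so these counts are no result about the members as a set. In the main fit at 12 h the share of members was below that of all probe sets, as given above.

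The median over members kept its sign for the region comparison and at 3 h under all these settings. Leaving out one array it ran from -0.21 to -0.04 between fields, -0.04 to 0.18 at 30 min, -0.42 to -0.09 at 3 h and -0.03 to 0.23 at 12 h. With the GAPDH covariate it was -0.01 at 30 min. With 2 arrays a group, and spreads between array medians of 0.27 (SD), shifts of this size in a whole complex are near the limit of what these arrays can show. For the 6 members below the array median on every array, a difference is close to background signal.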
